A study of Mus musculus with 6 samples.

Results

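Complement is a cascade of plasma and tissue proteins that tags microbes, immune complexes and damaged cells. In the classical pathway the recognition molecule C1q, built from the products of C1qa, C1qb and C1qc, activates the proteases C1r and C1s, which cleave C4 and C2. In the alternative pathway factor B, the product of Cfb, supplies the protease of the C3 convertase, and the serpin C1 inhibitor, the product of Serping1, blocks C1r and C1s. The liver makes most plasma complement, while macrophages are a known source of C1q and fibroblasts, keratinocytes and macrophages are local sources of several other components. The genes described here are complement components and inhibitors in mouse skin, chosen as probe sets whose platform annotation names only 1 of C1qa, C1qb, C1qc, C1ra, C2, C3, C4b, Cfb and Serping1. Of these 9 genes, 7 had such a probe set, 9 probe sets in all, among 12393 genes and 22690 probe sets on the array. C3 and C4b had none: no listed probe set names C3, and the probe set that names C4b also names C4a.

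The skin came from C57BL/6 mice that carried a subcutaneous pump for 7 days, and total RNA was hybridised to 1 single-colour Affymetrix array a sample. The groups were TSLP at the pump outlet (1 array), IL-13 at the outlet (1 array), TGF-beta at the outlet (2 arrays, from mouse 1 and mouse 2), PBS at the outlet (PBS local, 1 array) and PBS with skin taken from the abdomen, away from the outlet (PBS distal, 1 array). All outlet skin, the PBS local array included, had been exposed to the pump itself. The sources used here give no age, sex or dose, and leave unstated if 1 mouse gave both PBS pieces. TSLP is a cytokine made by epithelia with dendritic cells among its targets, IL-13 a cytokine of type 2 immunity, and TGF-beta a regulator of matrix production and of immune cells.

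Array medians lay between 160 and 171 signal units. The keratin gene Krt10, a marker of differentiated epidermis, had signals of 12656 under TSLP, 16849 under IL-13, 18937 and 15180 under TGF-beta, 14570 in PBS local and 18770 in PBS distal skin, so the tissue label held for the epidermis on every array. The skeletal muscle gene Acta1 was bright as well, with signals between 11674 and 18494, so muscle RNA was also present on every array. Between the TGF-beta mice, signals were at least 2-fold apart in 186 of 7597 genes (2.45%), which is the only measure of spread between animals that this design gives. Hepatocyte markers were low on every array, with summed signals over 8 measured genes of 10 listed of 367 under TSLP, 231 under IL-13, 326 and 320 under TGF-beta, 354 in PBS local and 387 in PBS distal skin. Skin is a mixture of cells, and a higher signal from more cells of a type cannot be told apart from more RNA per cell.

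Some of the genes are neighbours in the genome, a feature the choice of genes did not use. By RefSeq gene order (GRCm38.p6), C1qc lies between C1qb and C1qa on chromosome 4, and Cfb and C2 are neighbours on chromosome 17, with C4b 5 protein-coding genes from Cfb and C3 366 from C2. Serping1 has none of the others on its chromosome. C1ra on chromosome 6 is the neighbour of C1s1, with 0 other protein-coding genes between them. C1s1 encodes the protease partner of C1r. It is not among the 9 genes and was singled out after its values were seen, because its signals run beside those of C1ra below. Promoters are shown for C1ra and C1s1, which were both higher under TSLP, and for C1qb and C1qc, which were close to PBS local skin. Each is the 250 bases before the RefSeq start (GRCm38.p6), with capitals for motif matches. Promoters of 4 of the 9 genes were in the table, C3 being the other one, and the further of the 2 listed starts of C1s1 was used.
C1ra, chr6:124512371-124512620, plus strand: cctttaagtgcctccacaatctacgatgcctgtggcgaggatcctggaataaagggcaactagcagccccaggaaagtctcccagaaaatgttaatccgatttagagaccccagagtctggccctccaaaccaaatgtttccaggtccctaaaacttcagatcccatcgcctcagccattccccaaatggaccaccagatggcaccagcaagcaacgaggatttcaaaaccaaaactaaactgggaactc
C1s1, chr6:124542360-124542609, minus strand: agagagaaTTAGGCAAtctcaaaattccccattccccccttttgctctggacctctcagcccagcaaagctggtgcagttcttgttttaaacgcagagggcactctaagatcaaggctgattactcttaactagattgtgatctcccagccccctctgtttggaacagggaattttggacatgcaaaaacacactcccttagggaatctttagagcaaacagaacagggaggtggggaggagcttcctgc
C1qb, chr4:136886201-136886450, minus strand: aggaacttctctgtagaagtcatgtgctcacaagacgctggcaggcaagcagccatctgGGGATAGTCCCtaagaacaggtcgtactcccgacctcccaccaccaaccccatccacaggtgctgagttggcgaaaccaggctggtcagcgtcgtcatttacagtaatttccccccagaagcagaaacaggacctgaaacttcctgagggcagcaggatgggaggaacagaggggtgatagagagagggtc
C1qc, chr4:136892915-136893164, minus strand: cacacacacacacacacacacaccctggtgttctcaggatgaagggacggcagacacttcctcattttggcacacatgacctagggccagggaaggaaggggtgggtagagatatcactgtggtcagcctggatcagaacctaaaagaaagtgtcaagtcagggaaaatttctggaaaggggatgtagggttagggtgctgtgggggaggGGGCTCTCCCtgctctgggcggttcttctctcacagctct

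In all, 4 motifs were searched on both strands of these windows. The GAS element TTCNNNGAA, bound by STAT factors, was in 7.18% of 27025 promoter windows of the same length, and the ISRE core (GAAA, 2 bases of any kind and GAAA), bound by interferon regulatory factors and ISGF3, in 3.04%. Neither was in any of the windows shown. The kB motif (GGGA, 4 bases of any kind and CC), bound by NF-kB, was in 17.3% of all windows. It matched C1qb 2 times, in overlapping positions from -191 to -181, and C1qc 1 time, from -40 to -31 relative to the start. The C/EBP motif TTGCNNAA was in 9.55% of all windows and matched C1s1 1 time, from -242 to -235. The C1ra window held 0 matches to any of them. A match is a description of these letters only, and so is the lack of one.

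Under TSLP the enzyme genes C1ra, C2, Cfb and C1s1 had higher signals than in PBS local skin, and the C1q subunit genes did not stand out. C1ra, C2 and Cfb were higher by 0.90, 1.00 and 0.79, and C1s1 by 0.82, all as differences in log2(signal + 27.4), in which 27.4 is the 25th percentile over all signals and 1 unit is 2-fold. C1qa, C1qb and C1qc differed by 0.11, -0.06 and 0.04, and Serping1 by 0.20. The smaller differences depend on the scaling. After quantile normalization C1qa, C1qb, C1qc and Serping1 were at 0.22, 0.03, 0.08 and 0.39, and C1ra, C2 and Cfb at 0.94, 0.9998 and 0.84. With 1 array in each group these differences have no replicate check. The grouping of the measured listed genes into C1q subunits, enzymes and inhibitor follows their known roles and was made after the values were seen. Masp1, a protease gene of the lectin pathway and not a listed gene, was lower under TSLP, at -0.79.

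C1ra, whose product is the first protease of the classical pathway, had a signal of 2663 under TSLP, 1733 under IL-13, 1612 and 1527 under TGF-beta, 1413 in PBS local and 674 in PBS distal skin. The TSLP array stood alone at the top and the distal array alone at the bottom. C1s1 followed the same order at both ends, with 3808 under TSLP, 2264 under IL-13, 2453 and 2062 under TGF-beta, 2145 in PBS local and 1398 in PBS distal skin. C2, the classical pathway component cleaved by C1s, had 673 under TSLP, 470 under IL-13, 456 and 428 under TGF-beta, 323 in PBS local and 292 in PBS distal skin. Here all 4 cytokine arrays lay above both PBS arrays. Cfb had 3120 under TSLP, 1788 under IL-13, 2062 and 1671 under TGF-beta, 1795 in PBS local and 648 in PBS distal skin. The IL-13, TGF-beta and PBS local arrays overlapped for Cfb, with TSLP above and distal skin below them.

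**Figure D1:**
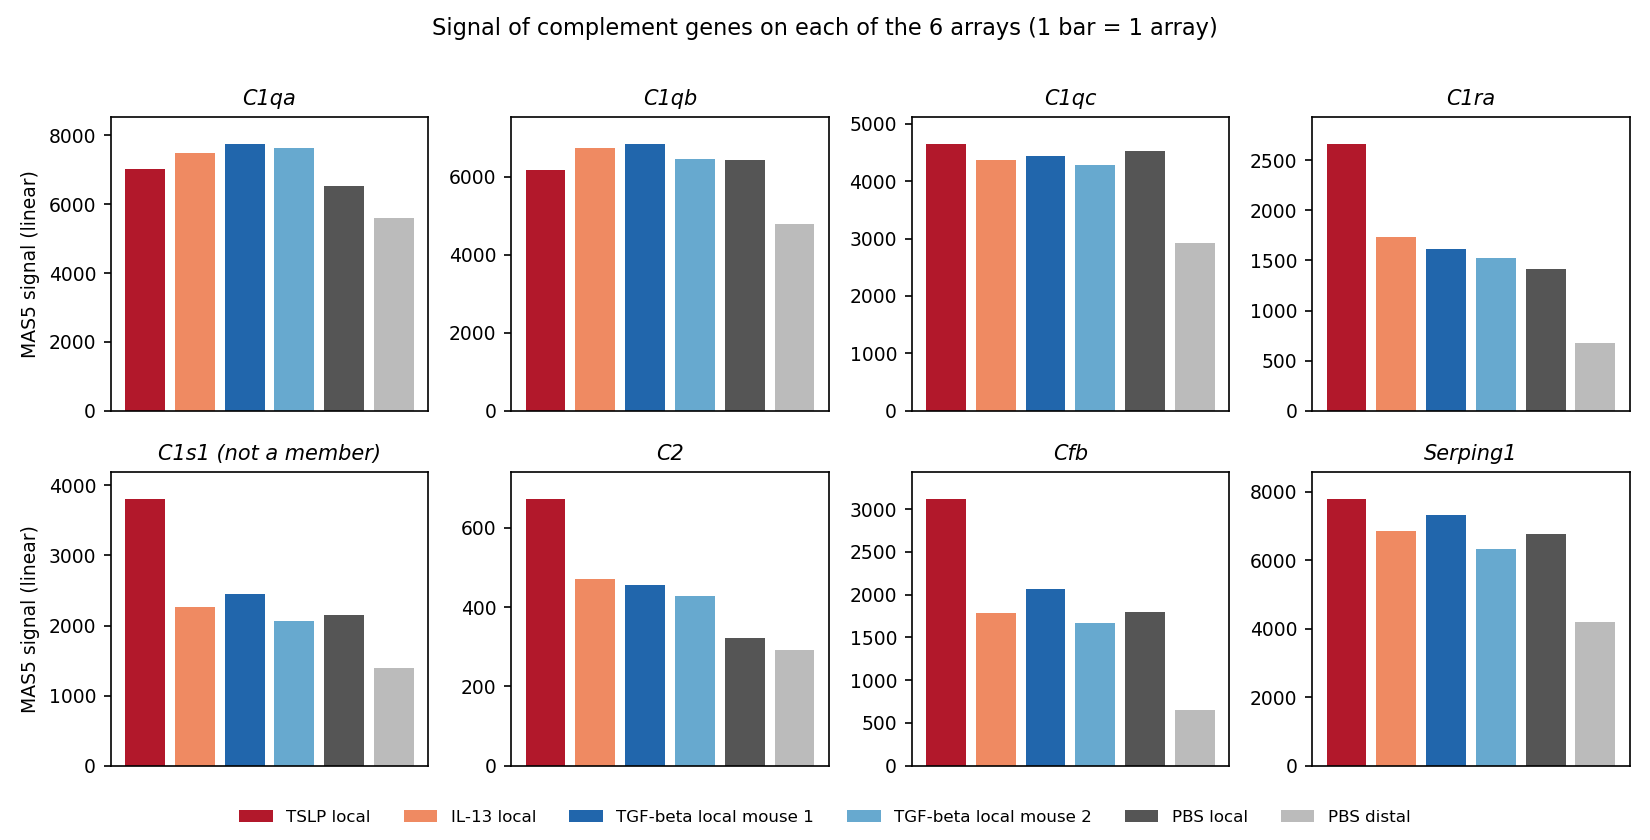
Linear MAS5 signal of each measured complement gene and of C1s1 on each of the 6 arrays, 1 bar an array and each panel on its own axis from 0. The TSLP bar is the highest for C1ra, C1s1, C2 and Cfb, and the PBS distal bar is the lowest in every panel.

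Of the C1q subunits, which together form the recognition molecule, C1qa had signals of 7032 under TSLP, 7498 under IL-13, 7748 and 7623 under TGF-beta, 6533 in PBS local and 5586 in PBS distal skin. C1qb had 6163, 6725, 6838 and 6446 on the TSLP, IL-13 and both TGF-beta arrays, 6433 in PBS local and 4792 in PBS distal skin. C1qc had 4648, 4374, 4443 and 4279 on the same cytokine arrays, 4518 in PBS local and 2923 in PBS distal skin. Distal skin was the lowest array for all 3 subunits. For C1qb and C1qc the outlet arrays lay closer to each other than to distal skin, while for C1qa they spread more widely than the gap between the lowest of them and distal skin. The inhibitor gene Serping1 had 7793 under TSLP, 6852 under IL-13, 7328 and 6334 under TGF-beta, 6777 in PBS local and 4193 in PBS distal skin. Its TSLP signal was the highest, but by only 0.09 on the log2 scale above that of TGF-beta mouse 1, less than the 0.21 between the TGF-beta mice. This lead depends on the scaling: after quantile normalization Serping1 was higher under TSLP by 0.39 against PBS local, 0.49 against IL-13 and 0.52 against the TGF-beta mean, in place of 0.20, 0.19 and 0.19. The brightest probe set of each C1q subunit and that of Serping1 lie between the 96.9th and the 98.4th percentile of mean signal. Whether any of them was saturated was not assessed.

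Different probe sets of C1qb did not give the same difference under TSLP. The brightest one, which stands for the gene, was at -0.06 against PBS local, while the others were at 0.18 and 0.39, and the mean of all 3 was at 0.17. The dimmer ones, with signals of 5201 and 4046 under TSLP against 4586 and 3075 in PBS local skin, end in x_at, a design mark for probes that can bind related transcripts. The sign for C1qb therefore depends on the probe set, and after quantile normalization it was also positive, at 0.03.

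Among all 7614 genes tested for TSLP against PBS local, C2 stood at the 99.0th percentile of the differences, C1ra at the 98.8th and Cfb at the 98.3rd. C1s1 was at the 98.5th, Serping1 at the 81.3rd, C1qa at the 70.4th, C1qc at the 59.6th and C1qb at the 39.9th. All 7 genes passed the filter on every array, since their lowest signal, 292 for C2, is above the median of all signals, 165. By the size rule of at least 2-fold, 1 of the 7 (C2) was higher and 0 were lower, against 0.998% and 0.447% of all genes. C2 lay at 1.001, just inside that limit, and C1ra at 0.90, just outside it. A positive difference was found for 6 of the 7, against 48.7% of all genes. The median over the 7 was 0.20, against -0.01 over all genes tested.

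**Figure D2:**
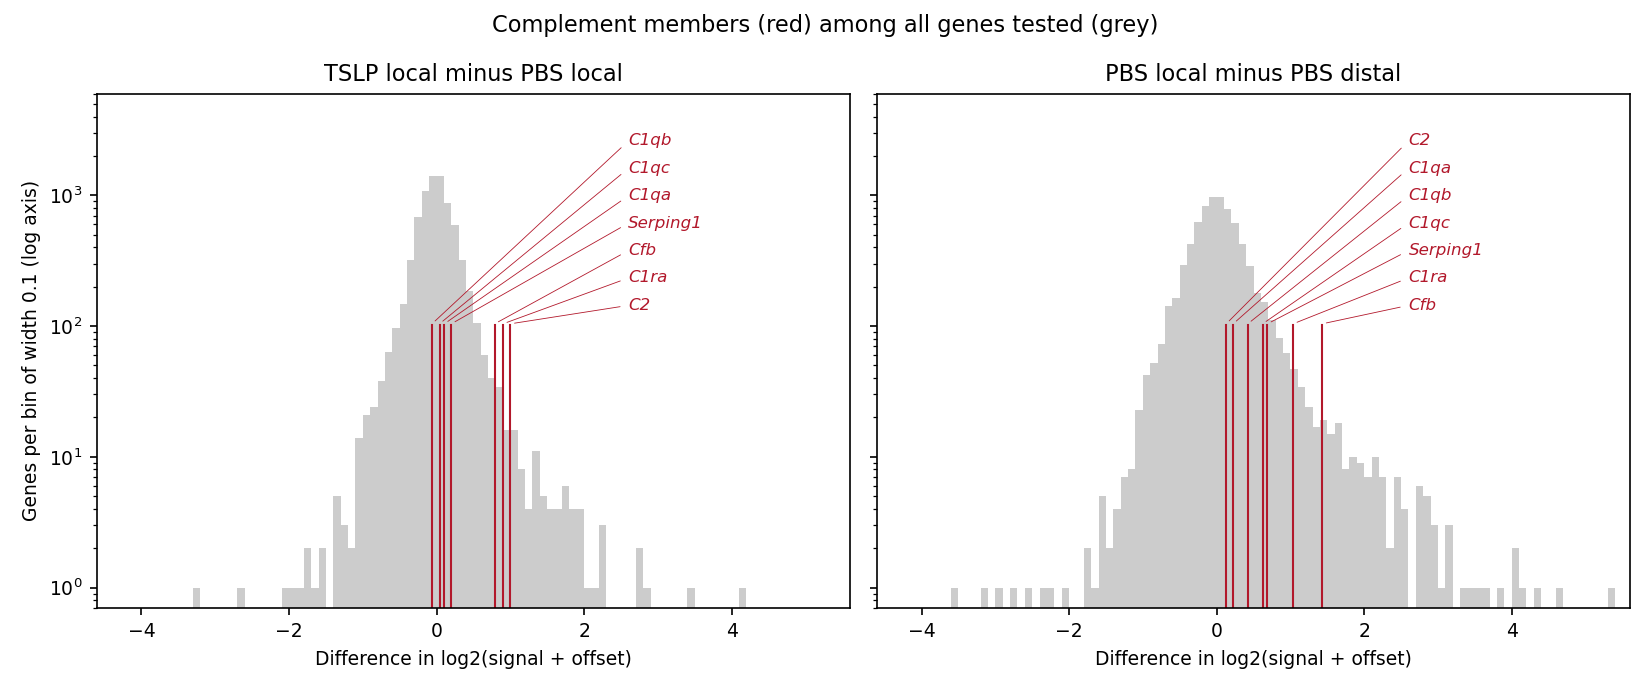
Number of genes per bin of difference in log2(signal + offset) on a log axis (grey), for TSLP minus PBS local on the left and PBS local minus PBS distal on the right, with the 7 complement genes as red lines. Under TSLP, C1ra, C2 and Cfb lie between 0.79 and 1.00 and the other 4 between -0.06 and 0.20, while at the outlet against distal skin the 7 spread from 0.13 to 1.43.

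The TSLP array could also be set against arrays other than PBS local. All TSLP comparisons share the 1 TSLP array, so an error in the TSLP array would move them all the same way. Against IL-13, C1ra was higher by 0.61, C2 by 0.49, Cfb by 0.79 and C1s1 by 0.74, with Serping1 at 0.19. C1qa, C1qb and C1qc were at -0.09, -0.13 and 0.09, and after quantile normalization at 0.14, 0.06 and 0.23. By the size rule 0 of the 7 were higher and 0 lower, against 0.82% and 0.556% of 7558 genes, and 5 had a positive difference, against 58.8%. The 7 had a median of 0.19, against 0.06 over all genes tested. These arrays are single ones as well.

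Against the TGF-beta mice the same genes could be tested, with the spread taken from those mice alone and the single TSLP array assumed to vary like them. Each SE here and below is limma's, which shares this spread over all genes tested. It is not the gene's own spread between the mice alone. C1ra was higher under TSLP by 0.71 against mouse 1 and 0.79 against mouse 2, a mean of 0.75 ± 0.16 (SE). Cfb was higher by 0.59 and 0.89, with a mean of 0.74 ± 0.20, and C2 by 0.53 and 0.62, with a mean of 0.58 ± 0.16. C1s1 was higher by 0.63 and 0.88, with a mean of 0.75 ± 0.19. Each of these differences was larger than the gap between the TGF-beta mice for the same gene, which was 0.08 for C1ra, 0.30 for Cfb, 0.09 for C2 and 0.25 for C1s1. None of the 7 genes passed limma's test with Benjamini-Hochberg adjustment over 7763 genes, nor did C1s1. The adjusted p of C1ra, C2, Cfb and C1s1 in limma was 0.676 for each, with unadjusted p-values of 0.00896, 0.0202, 0.0209 and 0.0153. Over all genes limma called 0 (0%), with 568 at an unadjusted p under 0.05. C1qa and C1qb were at -0.13 and -0.11 against the TGF-beta mean and at 0.13 and 0.12 after quantile normalization, so neither has a settled direction. By the size rule 0 of the 7 were 2-fold higher than both mice and 0 lower, against 0.515% and 0.167% of all genes. The difference was positive against both mice for 5 of the 7, namely C1qc, C1ra, C2, Cfb and Serping1, against 42% of all genes.

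Under IL-13 C2 differed most from PBS local skin among the 7 genes. C2 was higher by 0.51, at the 96.5th percentile of 7562 genes, C1ra by 0.29 and C1qa by 0.20, while Cfb was at -0.01. C1qb, C1qc and Serping1 were at 0.06, -0.05 and 0.02, of which C1qb and Serping1 changed sign under quantile normalization, to -0.03 and -0.10. With the mean of its 3 probe sets C1qb was at 0.40. By the size rule 0 of the 7 were higher and 0 lower, against 1.12% and 0.41% of all genes, and 5 of the 7 had a positive difference, against 39.8%. The median of the 7 was 0.06 (-0.0033 after quantile normalization), against -0.07 over all genes tested. These are 1 array a group, with no replicate check.

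Under TGF-beta no complement gene passed limma's test against PBS local skin. C2 had the largest difference of the 7, 0.47 in mouse 1 and 0.38 in mouse 2, a mean of 0.42 ± 0.16 (SE), with an unadjusted p of 0.0525 and an adjusted p of 0.864 in limma over 7741 genes. Its signal averaged 442 ± 20.3 under TGF-beta (SD, n = 2), against 323 on the single PBS local array. C1qa was at 0.25 and 0.22 and C1ra at 0.19 and 0.11 in mouse 1 and mouse 2. Cfb was at 0.20 and -0.10 and Serping1 at 0.11 and -0.10, so the mice lay on either side of the PBS local array. C1qb was at 0.09 and 0.0031 and C1qc at -0.02 and -0.08. Over both mice C1qb was at 0.05, at -0.09 after quantile normalization and at 0.29 with the mean of its probe sets, so its direction is not settled. Quantile normalization also put C1qa at 0.09 in place of 0.23 and Serping1 at -0.14 in place of 0.01. Limma called 0 of all genes (0%), with 355 at an unadjusted p under 0.05. The size rule in both mice took 0 of the 7 genes in either direction, against 0.181% of all genes higher and 0.155% lower. In both mice 4 of the 7 had a positive difference, C1qb among them at 0.0031 in mouse 2, against 27.9% of all genes.

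The comparisons of TSLP, IL-13 and TGF-beta with PBS local share that 1 control array. C2 was higher in all of them, by 1.00, 0.51 and a mean of 0.42, and its PBS local signal was the lowest of the outlet arrays. An error in that array would move all 3 differences the same way.

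**Figure D3:**
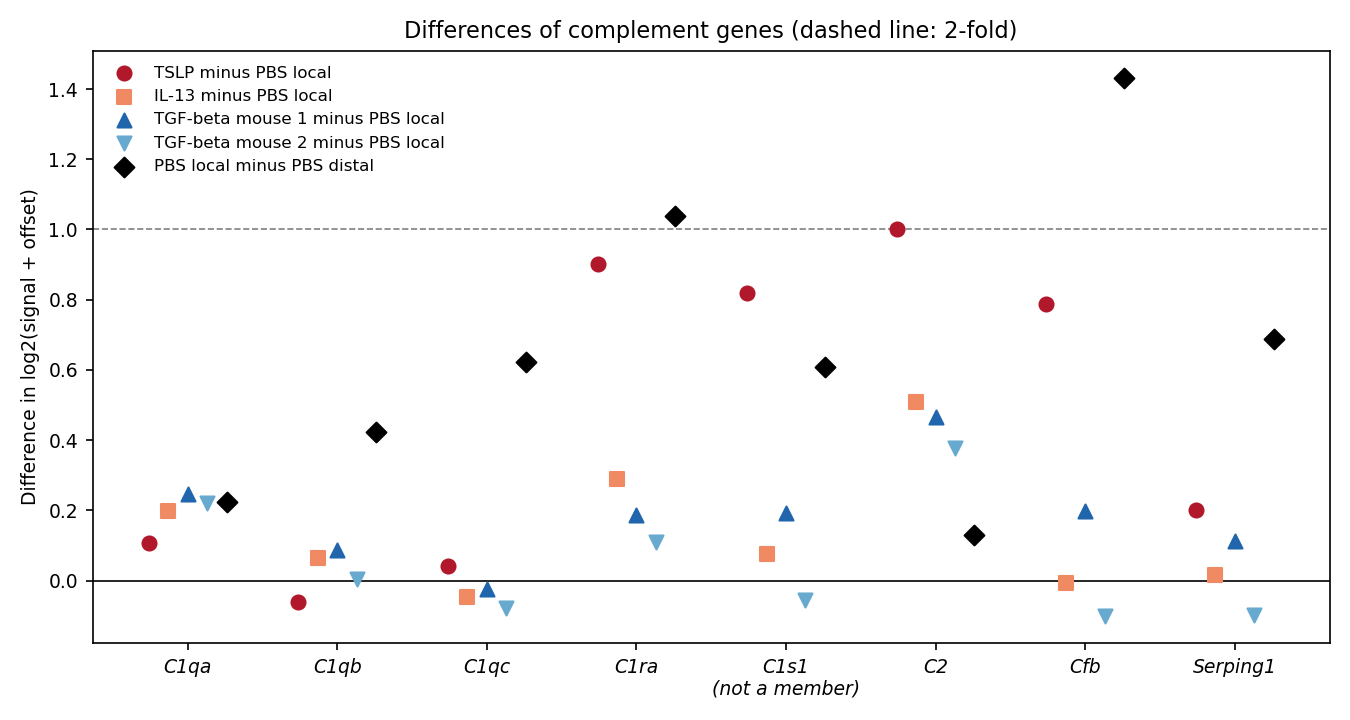
Differences in log2(signal + offset) of the 7 complement genes and C1s1, 1 point a comparison or mouse, with the dashed line at 2-fold. The TSLP points of C1ra, C1s1, C2 and Cfb lie between 0.79 and 1.00, above the IL-13 and TGF-beta points of the same gene, and all PBS local minus PBS distal points are above 0.

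Skin at the pump outlet under PBS had higher signals of all 7 complement genes than distal abdominal skin. Cfb was higher by 1.43 (2.70-fold) and C1ra by 1.04 (2.05-fold). Serping1 was higher by 0.69, C1qc by 0.62, C1qb by 0.42, C1qa by 0.22 and C2 by 0.13, and C1s1 outside the 7 by 0.61. The share of all genes with a positive difference was 51.8% of 7617. By the size rule 2 of the 7 (Cfb and C1ra) were higher and 0 lower, against 3.51% and 0.788% of all genes, and C1ra at 1.04 was just inside the limit. The median of the 7 was 0.62, against 0.01 over all genes. Pump, body site and, possibly, animal cannot be told apart in this comparison, which has 1 array on each side.

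Distal skin had the lowest of the 6 signals for 7 of the 7 genes, against 24.9% of 7945 genes. The gap between the lowest outlet array and distal skin was 1.33 for Cfb, 1.04 for C1ra, 0.59 for Serping1, 0.55 for C1qc, 0.36 for C1qb, 0.22 for C1qa and 0.13 for C2. The TSLP array had the highest signal for 5 of the 7 genes, namely C1qc, C1ra, C2, Cfb and Serping1, against 18.9% of all genes. TGF-beta mouse 1 was the highest for C1qa and C1qb. The gap between TSLP and the next highest array was 0.61 for C1ra, 0.59 for Cfb and 0.49 for C2, but 0.09 for Serping1 and 0.04 for C1qc, which is less than the gaps between the TGF-beta mice of 0.21 and 0.05.

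The order of the genes by their full range over the 6 arrays ran from Cfb at 2.22 through C1ra at 1.94, C2 at 1.13, Serping1 at 0.89, C1qc at 0.66 and C1qb at 0.51 to C1qa at 0.47, all as log2 differences. Over the 6 arrays, Pearson's r was 0.98 between C1ra and Cfb and 0.96 between C1ra and C1s1. It was 0.91 between C1qa and C1qb and 0.50 between C1qb and C2, the lowest among the 7. These values are descriptions over 6 arrays that share the low distal array.

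Of the other complement genes, 36 were measured and 18 passed the filter on at least 1 array, of which 9 were highest under TSLP and 7 lowest in distal skin, beside 18.9% and 24.9% of all genes. The genes of the terminal pathway were mostly dim, with Hc (C5) between 6.87 and 30.7 and C9 between 33.9 and 64.2 over the 6 arrays. Of the lectin pathway, Masp2, Mbl1 and Mbl2 were dim. Masp1 passed the filter, as did Fcna, with signals between 786 and 1259. Of 5 other components that passed the filter for TSLP against PBS local, 4 had a positive difference (median 0.23), beside 48.7% of all genes. At 2-fold there were 0, beside 0.998% of all genes higher and 0.447% lower. For IL-13 the count was 1 of 5 (median -0.05), beside 39.8%. For TGF-beta it was 1 of 5 (-0.20) by the mean of both mice, beside 3245 of 7741 genes by that rule. For PBS local against distal skin it was 5 of 5 (0.61), beside 51.8%, and 1 was 2-fold higher, beside 3.51%. That one was C6, a component of the membrane attack complex, at 324 under TSLP, 234 under IL-13, 197 and 270 under TGF-beta, 267 in PBS local and 90.9 in PBS distal skin. Its difference between PBS local and distal skin was 1.31, and distal skin was below the filter.

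Masp1, a protease of the lectin pathway, had lower signals under TSLP and TGF-beta than in PBS local skin, and it was singled out after its values were seen. It had 255 under TSLP, 441 under IL-13, 239 and 316 under TGF-beta, 463 in PBS local and 249 in PBS distal skin. The TSLP and TGF-beta arrays lay below PBS local, by -0.79 for TSLP and by -0.88 and -0.51 in the TGF-beta mice, where limma's adjusted p was 0.864. The IL-13 array, at -0.06, lay close to PBS local. Against distal skin PBS local was higher by 0.83, the direction also seen for C1ra and C1s1.

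The regulators of complement other than Serping1 showed no shared difference. Of 6 measured above the filter for TSLP, 3 had a positive difference (median 0.06), beside 48.7% of all genes. For IL-13 it was 3 of 5 (0.07), beside 39.8%. For TGF-beta it was 3 of 6 (-0.11) by the mean of both mice, beside 3245 of 7741 genes. For PBS local against distal skin it was 1 of 5 (-0.08), beside 51.8%. At 2-fold there were 0 in any of these, where at most 3.51% of all genes were higher and 0.788% lower. Cd55, the membrane inhibitor of the convertases, was singled out after its values were seen. It had signals of 1000 under TSLP, 825 under IL-13, 649 and 441 under TGF-beta, 632 in PBS local and 407 in PBS distal skin, with TSLP higher than PBS local by 0.64.

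Among the receptors, 6 of 7 had a positive difference under TSLP (median 0.28), beside 48.7% of all genes. Under IL-13 it was 3 of 7 (-0.04), beside 39.8%. Under TGF-beta it was 3 of 7 (-0.11) by the mean of both mice, beside 3245 of 7741 genes. In these comparisons 0 were at 2-fold, beside 0.998%, 1.12% and 0.181% of all genes higher and 0.447%, 0.41% and 0.155% lower. At the outlet under PBS, 6 of 7 were higher than in distal skin (median 0.71), and 3 of them at least 2-fold, beside 51.8% and 3.51% of all genes. These were the C3a receptor gene C3ar1 at 1.17, the macrophage complement receptor gene Vsig4 at 1.72 and Cd93 at 1.42. C3ar1 had 663 under TSLP, 723 under IL-13, 539 and 504 under TGF-beta, 500 in PBS local and 208 in PBS distal skin. Vsig4 had 248 under TSLP, 219 under IL-13, 261 and 178 under TGF-beta, 322 in PBS local and 78.5 in PBS distal skin, so PBS local was its highest array.

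**Figure D4:**
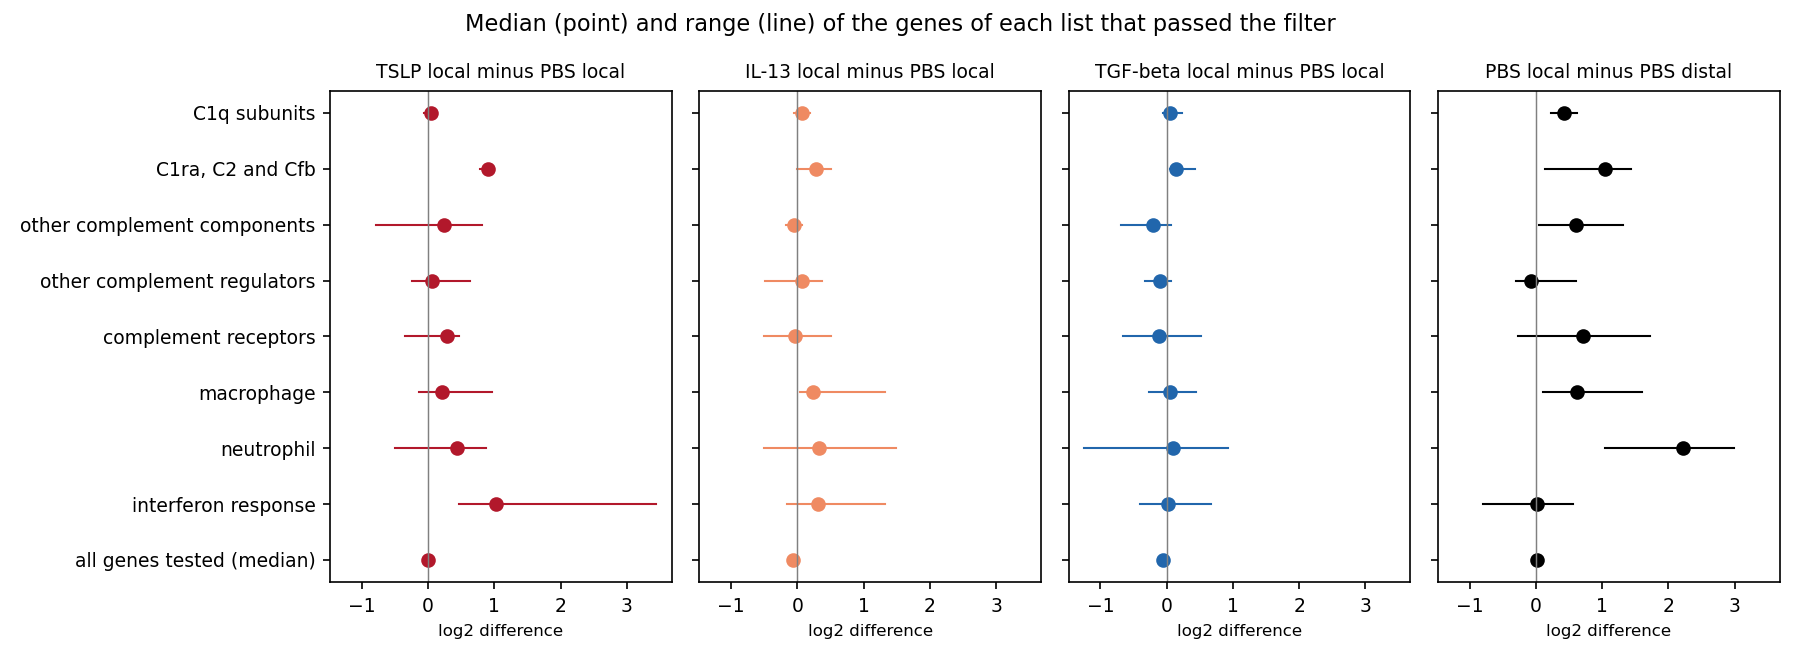
Median (point) and lowest to highest value (line) of the log2 differences of the genes of each list that passed the filter, for the comparisons of TSLP, IL-13 and TGF-beta with PBS local and of PBS local with PBS distal. For all genes tested only the median is drawn. Under TSLP, C1ra, C2 and Cfb have a median of 0.90 and the interferon response list one of 1.02, with the C1q subunits at 0.04. C1ra, C2 and Cfb were grouped after their values were seen, and the median over all 7 measured complement genes was 0.20.

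Markers of other cells and responses moved with some of these values. Interferon response genes were higher under TSLP in 18 of 18 measured genes, with a median of 1.02, beside 48.7% of all genes. At least 2-fold higher were 10 of them, beside 0.998% of all genes, among them Irf1 at 1.01, Gbp2 at 1.72 and Cxcl9 at 3.45. The median of the list was 0.31 under IL-13, 0.03 under TGF-beta and 0.02 in PBS local against distal skin. Their summed signal was 29828 under TSLP, 15729 under IL-13, 13684 and 12182 under TGF-beta, 12511 in PBS local and 13405 in PBS distal skin. Macrophage genes were higher in 10 of 13 under TSLP (median 0.22) and 13 of 13 under IL-13 (0.24), beside 48.7% and 39.8% of all genes. By the mean of both TGF-beta mice 7 of 13 were higher (0.04), beside 3245 of 7741 genes. In PBS local against distal skin it was 13 of 13 (0.61), beside 51.8%. The summed signal of the macrophage genes was 48568 under TSLP, 56998 under IL-13, 55279 and 48689 under TGF-beta, 46381 in PBS local and 34452 in PBS distal skin. Under TSLP the macrophage genes ran from -0.14 for Mrc1 to 0.97 for Cd14, with Aif1 at 0.56, Fcgr1 at 0.55, Mertk at 0.43, Cd68 at 0.00 and Csf1r at -0.05. The part of these cells and responses in the complement values was not tested.

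Neutrophil genes had medians of 0.44 under TSLP, 0.32 under IL-13, 0.10 under TGF-beta and 2.22 in PBS local against distal skin. Under TSLP 4 of 6 were higher (-0.50 to 0.87), beside 48.7% of all genes. Under IL-13 it was 5 of 6 (-0.50 to 1.49), beside 39.8%. By the mean of both TGF-beta mice it was 3 of 6 (-1.24 to 0.92), beside 3245 of 7741 genes. In PBS local against distal skin 6 of 6 were at least 2-fold higher, beside 3.51% of all genes. The NF-kB and STAT3 list holds feedback genes such as Socs3 and Nfkbia, but also Il6, Tnf, Il1b, Cebpb and Cebpd. Its medians were 0.43, 0.51, -0.34 and 0.80 in the same order of comparisons. Endothelial genes lay at 0.25, -0.28, 0.19 and 0.79 and fibroblast genes at -0.18, 0.16, -0.07 and 0.26. Keratinocyte genes lay at -0.25, -0.03, -0.07 and -0.37, adipocyte genes at 0.31, -0.18, -0.03 and -0.52, skeletal muscle genes at -0.26, -0.13, -0.13 and -0.14 and housekeeping genes at -0.10, 0.14, 0.23 and -0.11. The only hepatocyte gene above the filter was at 0.11, -1.12, -0.48 and -0.36. The skeletal muscle median of -0.14 covers a wide range. In PBS local against distal skin these genes ran from -2.78 to 0.63, with 3 of 8 higher and 5 lower, beside 51.8% of all genes higher. Myh4 was the lowest, with 2331 in PBS local and 16138.5 in PBS distal skin.

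The genes whose log2 values were most like the mean of the 7 standardised complement genes over the 6 arrays were Cd300c2 (Pearson's r 0.999), Ly86 (0.998), Elk3 (0.996), Vmp1 (0.994) and Csf3r (0.992), out of 1211 genes that spanned at least 1 log2 unit. Cd300c2 had signals of 806 under TSLP, 669 under IL-13, 711 and 633 under TGF-beta, 552 in PBS local and 282 in PBS distal skin. All 6 arrays enter each r, the low distal array among them, and the values describe these arrays only.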

How the data were processed

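The values are the authors' deposited signal intensities, 1 per probe set and array on a linear scale, with MAS5 listed as the tool in the submitters' processing notes (its version: not given in the sources used here). Each array's trimmed mean, without 2% at each end, lay between 500.16 and 500.20. Arrays were scaled to the mean of these, and values taken as log2(signal + 27.4). Of 22690 probe sets, 20380 name 1 gene, 691 several, 64 are controls and 1555 are unnamed here. Symbols of 20351 were matched to RefSeq (GRCm38.p6). The probe set with the highest mean stood for a gene, and a gene was tested if at least 1 compared array reached 165, the median of all signals. TGF-beta comparisons were fitted in limma 3.58.1 (R 4.3.3) over all 6 arrays in 5 groups, with an intensity trend and Benjamini-Hochberg adjustment at 0.05, and checked on simulated data. With 1 residual degree of freedom, the p-values rest only on the spread between the 2 TGF-beta mice. Limma's eBayes step shares that spread over all genes tested by intensity. An SE or p is therefore not from that gene's own spread alone. Other comparisons have 1 array a group and no p. The size rule was a log2 difference of at least 1, in both mice for TGF-beta, and the number of arrays limits the precision. Alternatives were the offset, the normalization, the filter, the mean of all probe sets, each TGF-beta mouse left out, and limma with borrowed spread. Named genes were the listed genes with their signals, other complement genes past the size rule and above the filter, and the 5 genes most like the mean. C1s1, Masp1, Cd55, Hc, C9, Fcna, Masp2, Mbl1 and Mbl2 fall outside this rule and were chosen after their values were seen. Krt10 and the named genes of the interferon, macrophage, skeletal muscle and NF-kB lists also fall outside it. The design was written for 9 genes, of which 7 were measured. The members and lists were chosen with earlier results of these data known. No per-sample column was left unused. Promoters are from RefSeq (GRCm38.p6).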

Additional observations from a re-analysis of the deposited data

How the results depend on the processing

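The higher TSLP signals of C1ra, C2, Cfb and C1s1 kept their direction under the alternatives run. Against PBS local, C1ra ran from 0.84 to 0.94, C2 from 0.78 to 1.05, Cfb from 0.74 to 0.84 and C1s1 from 0.78 to 0.88. The differences between PBS local and distal skin were also positive for all 7 genes under each alternative, the lowest being 0.06 for C2. The count of genes past 2-fold rests on values near the limit: for TSLP against PBS local it was 1 (C2 at 1.001), but 0 with the offset at the median of all signals and 0 after quantile normalization, where C2 was at 0.9998. For PBS local against distal skin it was 2, but 1 with the offset at the median. Limma with a spread borrowed from the TGF-beta pair is a different test, with 1 residual degree of freedom: it called 0 of the 7 for TSLP against PBS local, where it called 0 of all genes (smallest adjusted p 0.545, 304 at an unadjusted p under 0.05), and 0 of the 7 for PBS local against distal skin, where it called 2 of all genes (831 at an unadjusted p under 0.05). The median of the 7 genes was 0.39 for TSLP against PBS local, 0.40 for TSLP against IL-13 and 0.51 for TSLP against TGF-beta after quantile normalization, against 0.20, 0.19 and 0.19 as reported. For IL-13 it was 0.20 with the mean of all probe sets and -0.0033 after quantile normalization, against 0.06. Without 1 of the TGF-beta mice, a value with no test, the median for TGF-beta against PBS local ran from 0.0031 to 0.19, and that for TSLP against TGF-beta from 0.09 to 0.30. Limma called 0 genes for TSLP against TGF-beta and 4 after quantile normalization, none of them among the 7, whose smallest adjusted p was then 0.356. The causes were not tested.

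Counts of all genes at least 2-fold higher and lower also moved. With the offset at the median they were 42 and 18 for TSLP against PBS local (76 and 34 as reported), 50 and 10 for IL-13 (85 and 31), 5 and 2 for TGF-beta (14 and 12), 144 and 24 for PBS local against distal skin (267 and 60), 25 and 20 for TSLP against IL-13 (62 and 42) and 19 and 5 for TSLP against TGF-beta (40 and 13). With the offset at the 10th percentile, 48 were lower for IL-13, 29 higher for TGF-beta and 22 lower for TSLP against TGF-beta. Without the filter 131 were higher for IL-13, 101 lower for PBS local against distal skin and 81 lower for TSLP against IL-13, and with the mean of all probe sets 8 were lower for TSLP against TGF-beta. Without TGF-beta mouse 1, 143 were higher and 112 lower for TGF-beta, and 157 and 163 for TSLP against TGF-beta; without mouse 2, 27 and 47, and 70 and 30. No paired analysis was possible because only TGF-beta has more than 1 array.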

Other observations

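Some probe sets name a listed complement gene together with a near copy, so their signals cannot be given to either gene. The probe set that names C4a and C4b had 5915 under TSLP, 4162 under IL-13, 4162 and 4354 under TGF-beta, 4177 in PBS local and 3770 in PBS distal skin, so the TSLP array was the highest, by 0.50 on the log2 scale above PBS local. The probe set that names C1rb and C1ra was dim and had a different order, with 252 under TSLP, 288 under IL-13, 231 and 352 under TGF-beta, 155 in PBS local and 207 in PBS distal skin. Its highest array was TGF-beta mouse 2 and its lowest PBS local, unlike the probe set that names C1ra alone.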
